A study of Homo sapiens with 7 samples.

Results

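Olfactory receptor genes were targeted by 1496 of the 77441 guide RNAs of a genome-wide CRISPR knockout screen. The guides were taken by gene symbol, as those aimed at a gene named OR followed by a family number, subfamily letters and a member number. They covered 374 of 19112 targeted genes with 4 guides each. They were compared with 1000 non-targeting guides of the same Brunello library, none of which had a perfect site in the genome. The cells were HCT116, a human colorectal carcinoma line, from a clonal line with a GFP reporter at the AAVS1 locus whose signal follows splicing of OGT intron 4. All screened cells received the library by lentivirus at an MOI of 0.3, were kept on puromycin for 8 days from day 2, and had 24 h of TG at 1 μM from day 9. TG blocks OGA, the enzyme that removes O-GlcNAc, and every input and sorted library carried this treatment, so no untreated cells enter these values. The 3 input libraries came from cells that were not sorted, the 3 sorted libraries from cells with high GFP on day 10, and 1 further library was sequenced from the guide pool. A pilot screen was run at 100-fold library coverage and the others at 300-fold, and the columns do not tell which library is which.

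Olfactory receptors are G protein-coupled receptors that bind odorants in the cilia of sensory neurons of the nose, and each such neuron normally uses a single receptor gene. They form the largest gene family in mammals, in tandem clusters on many chromosomes, with many decayed copies left as pseudogenes. A colon carcinoma cell is not known to need them. Cas9 cuts the DNA 3 bases from an NGG motif (the PAM) that lies next to the 20 bases matched by the guide, whatever the gene does, and non-targeting guides load Cas9 without giving it a site. Guides to these receptors are therefore taken to carry cutting without loss of a needed protein, while non-targeting guides carry neither.

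A perfect site in coding sequence of the named gene was found for 1483 of the 1496 guides, in GRCh38 with GENCODE 44 annotation. The other 13 include all 4 guides to OR2W5, which that annotation lists as a pseudogene. The sequences below are those on which the results turn, with the 20 bases of the guide in lower case and the PAM at the site in the named gene in capitals. First are 3 guides to OR7E24, which differ in how many places they cut.
OR7E24 guide 35227: acaagattaagaagccacagAGG
OR7E24 guide 35228: aggtgtcggaacacctaaggTGG
OR7E24 guide 35229: catcggtttcacctccaccaCGG
Within OR7E24 on chromosome 19 they lie at chr19:9251517-9251536 on the minus strand, chr19:9251655-9251674 on the minus strand and chr19:9251307-9251326 on the plus strand. Guides 35227 and 35228 had 1 perfect site each. Guide 35229 had 20 sites on 10 chromosomes, of which 18 were in olfactory receptor pseudogenes. The other guide to this gene, 35230, had 38 sites on 12 chromosomes, 33 of them in olfactory receptor pseudogenes, and its sequence is not shown.

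The next set holds 6 of the 7 receptor guides that were called lower in sorted cells, the other being OR7E24 guide 35230, and the non-targeting guide with the same call, which has no PAM.
OR4K15 guide 51520: cgagcacaacacatacacgaCGG
OR2D3 guide 58278: actctaccatcatgacacaaCGG
OR52A5 guide 71556: ttcagtagccagcttcacgaTGG
OR2AT4 guide 69292: ggaggaaaataaaaaacacaGGG
OR6B3 guide 62375: ccagatctctaggaaagacaTGG
OR11H1 guide 51513: atgatattaggatagagcaaGGG
Non-targeting guide 77290: tcatcttacatctgggagac
Their sites in coding sequence of the named gene are chr14:19976004-19976023 on the minus strand for OR4K15, chr11:6921444-6921463 on the plus strand for OR2D3, and chr11:5132064-5132083 on the plus strand for OR52A5. Those of OR2AT4, OR6B3 and OR11H1 are chr11:75089602-75089621 on the plus strand, chr2:240045857-240045876 on the plus strand and chr22:15528591-15528610 on the minus strand. The OR11H1 guide had 3 perfect sites, 2 of them in coding sequence of other olfactory receptors, and the others had 1.

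The last set holds guides at the upper edge, which were chosen after their values were seen. They are the receptor guide with the highest input over guide pool, the only receptor guide over 4-fold higher in all 3 sorted libraries, and the guide nearest to a call in that direction.
OR51V1 guide 67202: tctctcgaatgatcccccacAGG
OR52N1 guide 49257: ggatggtggcataacgcagaGGG
OR2T29 guide 69553: acatccagctctacttagtgTGG
They lie at chr11:5200400-5200419 on the plus strand, chr11:5788405-5788424 on the plus strand and chr1:248559395-248559414 on the minus strand, all in coding sequence of the named gene. The OR2T29 guide had a further perfect site.

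The libraries held 26155295 to 31047546 reads on guides in cells and 35774845 in the guide pool. In the pool the median receptor guide had 409.5 reads and the median non-targeting guide 783.5, so non-targeting guides were measured at greater depth throughout. Guides at 0 made up 0.173% to 0.227% of all guides in the input libraries and 7.26% to 10.8% in the sorted libraries. OGT, whose knockdown raised the reporter RNA in the study, gave log2 ratios of sorted over input of 4.69, 5.35 and 5.65 in the 3 sorted libraries. The sources differ on the guide pool, for which the design text of the series names unselected cells and the study's methods a DNA preparation of the library. It was sequenced in 1 library, so ratios over it carry no test, and the spread between input libraries does not cover the error of the pool itself.

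Receptor guides were slightly scarcer than non-targeting guides on day 10. The level was taken as the log2 ratio of input over guide pool, with 1 read added to each count and with the median non-targeting guide set to 0 in each library. The median receptor guide stood at -0.17, -0.21 and -0.19 in the 3 input libraries, a mean of -0.19 ± 0.02 (SD, n = 3). It lay below 0 in every input library, by more than the spread between them. The median of the guides' own means over libraries was -0.20, which is 0.869 of the level of a guide that cuts nothing.

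The family also lay above the bulk of the library. All other targeting guides had a median of -0.27, -0.31 and -0.31, so receptor guides were higher than these by 0.10 ± 0.01 (SD, n = 3). Guides to taste receptors, a family of chemosensory receptors of the mouth, had a median of -0.13 ± 0.02 (SD, n = 3). Guides to keratin-associated proteins, which are hair shaft proteins, stood at -0.30 ± 0.03 (SD, n = 3). Guides to cytosolic ribosomal proteins, which dividing cells need, stood at -1.20 ± 0.05 (SD, n = 3). The receptor guides thus sat close to non-targeting guides on a scale set by ribosomal proteins, and below them in all 3 libraries.

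As a share of reads, receptor guides made up 1.96% of the guide pool and 2.09%, 2.09% and 2.11% of the input libraries. Non-targeting guides stood at 2.26% and then at 2.69%, 2.76% and 2.76%, and ribosomal protein guides at 0.380% and then at 0.224%, 0.228% and 0.224%. A share of reads is set by what the other guides do, and receptor and non-targeting guides both held a larger share of every input library than of the pool.

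The shift was present across the range of guide abundance, where both kinds of guide change. Guides were split into 4 classes at the quartiles of pool reads, since pool reads enter the ratio themselves. With 0 to 261 pool reads the medians were 0.02 for 337 receptor guides and 0.24 for 20 non-targeting guides. With 262 to 396 reads they were -0.18 for 385 and 0.48 for 44 guides, and with 397 to 617 reads -0.24 for 404 and 0.26 for 210 guides. With 618 to 2048 reads they were -0.28 for 370 and -0.08 for 726 guides. Receptor guides lay below non-targeting guides in each class and in each of the 3 input libraries within it. The difference ran from -0.19 to -0.67, larger than in the pooled value for each class but the highest. In the lowest class it was -0.03, -0.58 and -0.31 in the 3 input libraries. Pool reads are the divisor of the ratio, so classes cut on them also sort guides by error in the pool count. The size of these differences is therefore not read further.

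Base composition differed too, with a median GC content of 45% in receptor guides and 50% in non-targeting guides. Among guides of 36% to 45% GC the receptor median was -0.13 and the non-targeting median 0.09. At 46% to 55% GC the medians were -0.24 and -0.03, and at 56% to 65% GC -0.25 and -0.11. Receptor guides were again the lower in each class. At 35% GC or less 217 receptor and 125 non-targeting guides differed by -0.47. At 66% or more the difference was -0.39, over only 11 receptor and 47 non-targeting guides.

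The lower tail was longer than in non-targeting guides and shorter than in the library as a whole. A mean ratio of 2-fold or more below the median non-targeting guide was seen for 174 of the 1496 receptor guides, or 11.6%, against 43 of 1000 non-targeting guides, or 4.30%. Over all 77441 guides that share was 13.9%. In the other direction 9 receptor guides, or 0.602%, were 2-fold or more higher, against 1.30% of non-targeting guides and 0.781% of all guides. The middle of the receptor distribution, from the 25th to the 75th percentile, ran from -0.57 to 0.14, and that of non-targeting guides from -0.32 to 0.29. With the median of all guides as the reference, 84 receptor guides lay 2-fold or more lower, or 5.61%, against 1.90% of non-targeting guides and 7.69% of all guides. The counts thus depend on the scale, and the order of the 3 shares was the same on both.

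Loss was rarely shared by the 4 guides of a gene, in receptors as in other genes. No receptor gene had all 4 guides 2-fold or more lower, which was also rare in other genes at 0.384%. In 2 of 374, or 0.535%, 3 or more guides were that low, against 2.29% of other genes. In 238 receptor genes, or 63.6%, no guide was that low, against 57.2% of other genes, and in 100, or 26.7%, exactly 1 was, against 31.8%. All 4 guides stood below 0 in 14.4% of receptor genes and in 28.5% of other genes. The variance between genes was 2.03% of the total over receptor guides and 8.30% over other genes with 4 guides. The SD between guides of the same gene was 0.59 for receptors and 0.60 for other genes.

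Receptor guides with more sites stood lower. Of the receptor guides, 1359 had 1 perfect site, and their median was -0.15, -0.20 and -0.17 in the 3 input libraries. For 92 guides with 2 sites it was -0.33, -0.32 and -0.34, and for 28 guides with 3 or 4 sites -0.36, -0.32 and -0.44. For 17 guides with 5 or more sites it was -0.84, -0.76 and -0.86. The groups with more sites lay below the group with 1 site in every library, while those with 2 and with 3 or 4 sites were not ordered in every library. Of the 17 guides, 16 lay below 0, as did the median guide with 1 site. Of the 17, 7, or 41.2%, were 2-fold or more lower, against 10.9% of those with 1 site.

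By the mean of each guide over libraries the receptor medians were -0.18, -0.35, -0.29 and -0.80 in these groups. Other targeting guides had -0.29 for 1 site, -0.38 for 2, -0.62 for 3 or 4 and -0.72 for 5 or more, so their median fell at each step and that of receptor guides did not. With 1 site each, receptor guides at -0.18 were above other targeting guides at -0.29. Sites with 1 mismatch went with no lower median. Among receptor guides with 1 perfect site, the median was -0.18 for 1089 guides with no such further site, -0.14 for 182 with 1 and -0.17 for 88 with 2 or more. The share of them 2-fold or more lower was 10.3%, 13.2% and 13.6%.

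Most extra sites were in relatives of the named gene. The 137 receptor guides with more than 1 perfect site had 449 sites in all, of which 137 were in the named gene. A further 155 were in coding sequence of another olfactory receptor, 140 in olfactory receptor pseudogenes and 8 in other coding sequence. The 17 guides with 5 or more sites belong to 6 genes, OR11H12, OR7E24 and the near-identical OR4F3, OR4F16, OR4F21 and OR4F29. The last 4 genes hold 14 of these guides and cut many of the same gene copies, so these are not independent measurements.

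OR7E24 gave this contrast within a single gene, a member of a subfamily known for its many pseudogenes. Guide 35227, with 1 site, had 146 pool reads and normalised counts of 160, 182 and 156 in the input libraries, and its log2 ratio over the pool was 0.44. Guide 35228, with 1 site, had 261 pool reads and 266, 198 and 126 in the input, a ratio of -0.21. Guide 35229, with 20 sites, had 224 pool reads and 6.58, 15.8 and 37.3 in the input, a ratio of -3.49 and the lowest of all receptor guides. Guide 35230, with 38 sites, had 238 pool reads and 31.3, 21 and 65.9 in the input, a ratio of -2.47. The guides with many sites were lower than the guides with 1 site in every input library, and the guide with most sites was not the lowest.

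The other guides with most sites were also below 0. They belong to OR4F genes and had 8 to 11 perfect sites. OR4F29 guide 74977, with 9 sites, stood at -2.31, from -0.73 to -4.14 between input libraries. OR4F16 guide 51565, with 11 sites, stood at -1.28, and the OR4F16 guides 51566 and 51563, with 10 and 8 sites, at -0.86 and -0.21. OR4F21 guide 73101, with 8 sites, stood at -0.80 and OR4F3 guide 35247, with 10 sites, at -0.78. All 8 guides of this set lay below 0, over a range that their site numbers did not order. The median over all receptor guides was itself below 0, at -0.20, so a value below 0 was common in the family.

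Low values were not limited to guides with many sites. OR4K15 guide 51520, with 1 site on chromosome 14, had 401 pool reads and 45.2, 75.3 and 51.2 in the input, a ratio of -2.57. OR5AN1 guide 71690, with 1 site, stood at -2.32, with -2.36, -2.25 and -2.37 in the 3 libraries. OR2A42 guide 72553, with 2 sites, stood at -2.57. At the other end OR51V1 guide 67202 stood at 3.62, a value that rests on 0 reads in the pool and on counts of 0, 45.5 and 27.8 in the input. These extremes were chosen after their values were seen.

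By gene, as the median of its guides, the lowest was OR4F29 at -1.67, followed by OR7E24 at -1.34, OR4K5 at -1.26, OR4F4 at -1.10, OR4K15 at -1.07 and OR52I2 at -1.04. In all 7 receptor genes, or 1.87%, lay at -1 or below, against 4.32% of all genes. OR4F29 and OR4F4 have guides with several sites, whereas those of OR4K5 and OR52I2 have 1 site. Only 3 guides to OR4F29 were above 0 in a cell library, and its median also holds a guide at 0 in all of them. The highest were OR10A7 at 0.78, OR5H1 at 0.65 and OR4C16 at 0.59. The values of OR4C16 were -0.11, 0.78 and 0.83 in the 3 input libraries, so they were not stable between libraries, while those of OR4K5 were -0.95, -1.44 and -1.39.

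Receptor genes lie on most chromosomes, which allows the level to be read at many places. Guides with 1 site fell on 16 chromosomes, and 10 of these had 30 or more. Chromosome 11, home of the largest clusters, had 629 guides to 162 genes with a median of -0.14, at -0.15, -0.17 and -0.14 in the input libraries. Chromosome 1 had 194 guides at -0.18 and chromosome 9 had 94 guides at -0.16. The lowest of the 10 were chromosome 14, with 80 guides to 21 genes at -0.40, and chromosome 3, with 34 guides at -0.35. In the input libraries they stood at -0.30, -0.30 and -0.39 and at -0.32, -0.37 and -0.26, so their order was not stable. The highest was chromosome 17, with 39 guides at 0.01. The 5 families on chromosome 14 differed, with medians of -0.38 over 51 guides to family 4, 0.01 over 14 to family 11 and -0.55 over 7 to family 10. The 4 guides to family 5 and the 4 to family 6 had -0.90 and -0.26.

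Against other targeting guides with 1 site on the same chromosome, receptor guides had the higher median on 8 of the 10 chromosomes. The exceptions were chromosome 14, with -0.34 in other guides, and chromosome 3, with -0.35 in 34 receptor guides and -0.27 in other guides. Class I receptors, the OR51, OR52 and OR56 families that resemble those of fish, had a median of -0.14 ± 0.02 (SD, n = 3) over 199 guides with 1 site. Class II receptors, all other families, had -0.18 ± 0.03 (SD, n = 3) over 1160 guides, a difference within the range seen between chromosomes. All class I genes lie on chromosome 11, where the guides of both classes together had a median of -0.14.

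The sort asked which knockouts raise GFP under TG, and receptor guides gave the rate at which guides without a known target effect are called. Of 1496 receptor guides, 1494 were above 0 in some cell library and were tested with all others. None was called higher in sorted cells at an adjusted p of 0.05 by limma with Benjamini-Hochberg adjustment, and a count of 0 of 1494 allows a share of up to 0.201%. Over all 77388 guides tested, 71 were called higher, or 0.0917%. None of 1000 non-targeting guides was called, which allows up to 0.300%. At an unadjusted p under 0.05, limma gave 55 receptor guides, or 3.68%, and 25 non-targeting guides, or 2.50%, against 4.42% of all guides. By edgeR on the recovered reads no guide of the library was called in either direction. By DESeq2 12 receptor guides, or 0.803%, were called higher, against 1.46% of all guides.

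In the other direction 7 receptor guides, or 0.469%, and 1 non-targeting guide, or 0.1%, were called lower by limma, against 0.591% of all guides. At an unadjusted p under 0.05 there were 45 receptor guides, or 3.01%, and 30 non-targeting guides, or 3.00%, against 2.94% of all. All 7 called receptor guides were at 0 in each of the 3 sorted libraries, as were 453 of the 457 guides called lower in the whole library. Their mean input counts ran from 38.7 to 201, all below the median of 295.5 over receptor guides. In all, 16 receptor guides, or 1.07%, were at 0 in all 3 sorted libraries, against 1.01% of other targeting guides and 0.4% of non-targeting guides. Of the 16, 2 were at 0 in the input as well and were not tested. Without sorted library 2, or with the count added before the log raised to 10, no guide of the whole library was called lower.

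The 7 guides are given with their normalised counts in the input libraries, all being at 0 after the sort. OR11H1 guide 51513 had the most, with 242, 172 and 188, and an adjusted p of 0.0387 by limma. OR2D3 guide 58278 had 102, 164 and 134, and OR52A5 guide 71556 had 130, 129 and 68.5. Each of these 3 guides had over 100 in at least 2 of the input libraries.

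OR6B3 guide 62375 had 67.4, 56 and 55.5, OR4K15 guide 51520 had 45.2, 75.3 and 51.2, and OR2AT4 guide 69292 had 23, 41.1 and 52. OR7E24 guide 35230 had 31.3, 21 and 65.9. These 6 guides other than the OR11H1 guide shared an adjusted p of 0.0376 by limma. Non-targeting guide 77290 looked alike, with 57 pool reads, input counts of 46.9, 43.8 and 65.1 and 0 in all sorted libraries. A fitted fold change against 0 depends on the count added, so none is given for these guides.

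The values of a guide in 1 sorted library said little about those in another, for receptor guides as for the whole library. The log2 ratios of sorted over mean input of the receptor guides correlated between sorted libraries at r = 0.038 to 0.070 across 1496 guides, which are not independent replicates and share the input in the ratio. It was 0.074 to 0.107 over all guides and 0.030 to 0.182 over non-targeting guides. The ratios of input over guide pool correlated at r = 0.643 to 0.826 between input libraries, which share the pool. The SD of the sorted ratio over receptor guides was 2.07, 2.62 and 2.27 in the 3 libraries, against 1.22, 1.36 and 1.26 over non-targeting guides.

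The wider spread of receptor guides went with their lower counts, though at a mean input below 400 more of them were at 0 than of other targeting guides. Of receptor guides 6.68%, 10.2% and 7.62% were at 0 in the 3 sorted libraries, against 1.80%, 1.20% and 1.60% of non-targeting guides and 7.91%, 10.9% and 7.33% of other targeting guides. The median of the mean input count was 295.5 in receptor guides and 664 in non-targeting guides. Among guides with a mean input of 400 to 800, 4 of 422 receptor guides, or 0.948%, and 5 of 579 non-targeting guides, or 0.864%, were at 0 in any sorted library. At 200 to 400 it was 90 of 639 receptor guides, or 14.1%, and 11 of 107 non-targeting guides, or 10.3%. At 100 to 200 it was 147 of 320, or 45.9%, and 3 of 13, or 23.1%. Below 100 it was 58 of 78 receptor guides, or 74.4%, and all 12 non-targeting guides. Other targeting guides had 1.05% at 400 to 800, 11.9% at 200 to 400, 38.25% at 100 to 200 and 70.75% below 100.

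Apparent hits in a single library also went with low counts, in receptor guides as in the others. A ratio over 4-fold in at least 1 sorted library was seen for 51 receptor guides, or 3.41%, and for 7 non-targeting guides, or 0.700%, against 5.77% of all guides. The count was 16, 22 and 15 receptor guides in the 3 libraries. All 51 had a mean input below 400, where the share ran from 2.50% of guides at 200 to 400 through 6.56% at 100 to 200 to 17.9% below 100. Other targeting guides had 2.77%, 10% and 26.2% in these classes. Non-targeting guides had 0.935%, 7.69% and 33.3%, over 107, 13 and 12 guides. Of 422 receptor guides at 400 to 800 and 37 above, none was over 4-fold in any library. At 400 to 800 the share was 0.566% of other targeting guides and 0.173% of non-targeting guides.

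Such values were seldom repeated in another library or by another guide. A ratio over 4-fold in at least 2 sorted libraries was seen for 1 receptor guide, or 0.0668%, against 0.608% of all guides and 0 of 1000 non-targeting guides. No receptor gene had 2 of its guides over 4-fold in the same sorted library, whereas 1.82% of other genes did. The guide that repeated was OR52N1 guide 49257, with 40 pool reads, 10.7, 7 and 33 in the input and 150, 147 and 121 in the sorted libraries. All 3 sorted values lay above all input values, and its log2 fold change was 3.25 ± 1.56 (SE) with an adjusted p of 0.702 by limma.

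The receptor guide nearest to a call was OR2T29 guide 69553. It had 217, 272 and 208 in the input and 580, 799 and 858 in the sorted libraries, a log2 fold change of 1.67 ± 0.31 (SE) with an adjusted p of 0.0723 by limma. Its groups did not overlap. OR4C45 guide 72603 had 274, 324 and 352 in the input and 604, 1767 and 782 in the sorted libraries, a log2 fold change of 1.58 ± 0.41 (SE) with an adjusted p of 0.286 by limma. OR13G1 guide 73222 had 143, 166 and 138 in the input and 553, 93.7 and 1748 in the sorted libraries, so it was higher in sorted libraries 1 and 3 and lower in sorted library 2. These guides were chosen after their values were seen.

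By gene no olfactory receptor was called in either direction. Guide p-values were combined per gene by robust rank aggregation, which asks whether a gene's guides rank near the top more often than random guides would. After Benjamini-Hochberg adjustment over 19112 genes it called 62 genes enriched in sorted cells, or 0.324%, and 1 depleted, or 0.00523%, with 0 of 374 receptor genes in either list. A count of 0 of 374 allows a share of up to 0.802%, so a rate equal to that of all genes was not detectable with this number of genes. At an unadjusted p under 0.05 the aggregation gave 9 receptor genes enriched, or 2.41%, against 5.46% of all genes, and 26 depleted, or 6.95%, against 5.49%. By limma on gene means 0 receptor genes were called as well, where only 3 of 19112 genes were called higher and 0 lower. At an unadjusted p under 0.05 by limma on gene means 60 receptor genes were lower, or 16.04%, against 13.9% of all genes. In the higher direction there were 0 receptor genes, for which the share over all genes is not given here. The smallest adjusted p of the aggregation was 0.363 for enrichment, in OR4E2, and 0.537 for depletion, in OR7E24.

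Receptor genes moved like the average gene in the sort. The median over receptor genes of the log2 fold change, as the mean of a gene's guides by limma, was -0.57, and over all genes -0.56. It was above 0 for 69 receptor genes, or 18.4%, and for 21.4% of all genes. No receptor gene reached 1, whereas 120 genes of the library did, or 0.628%.

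The highest receptor genes were OR52N1, with 1.13, 0.80 and 0.65 in the 3 sorted libraries and a fold change of 0.86 ± 0.38 (SE) on the log2 scale, and OR4M2, with 0.17, 0.77 and 1.36 and 0.77 ± 0.39 (SE). OR52N1 rested on guide 49257, since its other guides had 0.04, 0.23 and -0.09. All 4 guides to OR4M2 were positive, from 0.37 to 1.22, and each had a second perfect site. OR51G1, OR4N4, OR1J1 and OR10A5 followed at 0.55, 0.55, 0.48 and 0.47. By limma on gene means the adjusted p of these 6 genes ran from 0.322 in OR52N1 to 0.469 in OR1J1.

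The lowest were OR8D2 at -3.80 ± 1.17 (SE), OR11H1 at -3.77, OR4F21 at -3.65, OR5D14 at -3.18, OR52E4 at -3.11 and OR52A5 at -2.72. OR8D2 stood at -2.51, -6.72 and -2.18 in the 3 sorted libraries, so sorted library 2 gave the largest part of its change. OR52E4 stood at -2.91, -3.36 and -3.07 and had the smallest adjusted p of any receptor gene by limma on gene means, at 0.140. OR11H1 and OR52A5 each had 1 guide at 0 in all sorted libraries, and OR4F21 had 1 guide at 0 in every cell library, so its value rests on 3 guides. The fold changes of these genes hold guides at 0 in some libraries and depend on the count added.

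In the median over guides the difference between receptor and non-targeting guides in the sort depended on the summary. Taken in each sorted library against the mean input, the receptor median less the non-targeting median was -0.01, -0.12 and 0.01, a mean of -0.04 ± 0.07 (SD, n = 3). Taken as the median of the guides' fold changes over all libraries by limma, it was -0.17, with -0.25 in receptor guides and -0.08 in non-targeting guides. Among guides with a mean input of 200 to 800 it was -0.0025, but this range mixes classes in which receptor guides were the higher. At 200 to 400 the receptor median was -0.19 and the non-targeting median -0.29, and at 400 to 800 they were -0.03 and -0.11. Receptor guides were the lower at 100 to 200, with -1.5 against -0.04 over 13 non-targeting guides, and above 800, with -0.07 against 0.03. Below 100 the medians were -1.80 and -1.81. The difference lay within the spread between libraries by the first summary, and the loss of rare guides to 0 enters the second.

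A list of 13 receptors with well-studied ligands was followed as well, of which 12 had guides under these symbols. OR51E1 and OR51E2, known for expression outside the nose as in prostate, stood at 0.26 ± 0.19 (SE) and -0.54 ± 0.50 (SE) in log2 fold change of sorted over input. The androstenone receptor OR7D4 was the lowest at -2.45 ± 0.65 (SE), with an adjusted p of 0.205 by limma on gene means. At an unadjusted p under 0.05 rank aggregation gave none of the 12 in either direction, a number too small to set against the 5.46% and 5.49% of all genes. By limma on gene means OR7D4 had an unadjusted p of 0.00581. The median of the 12 genes was -0.58, against -0.57 for all receptor genes.

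In input over guide pool, by the median over a gene's guides of their means over libraries, the 12 genes ran from -0.71 in OR6A2 to 0.14 in OR1A1. Their median was -0.17, against -0.21 over all receptor genes and -0.30 over all genes. OR51E2, whose guides had 1 site each, stood at 0.13 by this summary, and its median guide within each input library at 0.29, 0.17 and 0.34. OR51E1 stood at -0.15, and within the input libraries at -0.04, -0.09 and -0.32. OR5A1, the receptor for the violet odorant beta-ionone, stood at -0.06, OR2J3 at 0.02 and OR2W1 at 0.08. OR10G4, OR1D2, OR2AG1 and OR5AN1 stood at -0.25, -0.30, -0.25 and -0.19, and OR7D4 at -0.67.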

How the data were processed

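The deposited guide values were normalised counts, made by the authors with FastQC 0.11.9, cutadapt 3.3 and MAGeCK, per the labels, as reads times 1 factor per library. Each cell held 3 libraries joined by slashes without replicate names. Whole reads were recovered from them (100.0% of low values whole within 0.1). The guide pool was deposited as raw counts per guide. Columns of the authors' own comparison (gene ranks, fold changes, p-values) were not used, and 0 other columns of per-sample values were left out.

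Guides were matched with 20 bases and NGG to both strands of GRCh38, from GENCODE 44, since the files name no build. Sorted was compared with input by limma 3.58.1 with a mean-variance trend on log2(normalised count + 1), over the 77388 guides above 0 in a cell library, with Benjamini-Hochberg adjustment over all. P-values measure the spread between these 3 and 3 libraries. Genes were ranked by robust rank aggregation, rewritten with alpha 0.25 and 1000000 null draws (smallest p 1e-06), a null over guides. Alternatives used edgeR 4.0.16 and DESeq2 1.42.0. Limma and the rank aggregation were checked on simulated data whose noise in the sort was taken from non-targeting guides. These have a narrower spread in the sort than receptor guides, so the check may not cover the latter. Upper limits for a count of 0 use 3 counts and cover counting error only.

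The members and lists were chosen with earlier results of these data known. Genes and guides named are all receptor guides or genes called, the 6 highest and 6 lowest genes in sorted over input, the 6 lowest and 3 highest in input over guide pool, the 8 guides with most perfect sites, the ligand list and OGT. Others are named as chosen after their values were seen.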

Additional observations from a re-analysis of the deposited data

How the results depend on the processing

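The difference between receptor and non-targeting guides in input over guide pool kept its sign under each alternative. It was -0.40 as a mean over the 4 classes of pool reads, chosen after seeing the data, and -0.20 to -0.18 with each input library left out. Receptor guides 2-fold or more lower numbered 84 with the median guide as reference and 84 in reads scaled by library total. On both scales this was 5.61%, against 1.90% of non-targeting guides. With an input library left out they numbered 162 to 195, or 10.8% to 13.0%, against 4% to 5.2% of non-targeting guides. Calls of single guides depended on the method. Receptor guides called higher numbered 12 by DESeq2 (0.803%, against 1.46% of all guides) and 0 to 9 with a library left out. They were 9 without sorted library 1 (0.602%, against 0.628%) and 2 without sorted library 3 (0.134%, against 0.342%). Those called lower numbered 0 with a count of 10 added, 0 with a mean input of at least 100 and 0 by edgeR, where no guide of the library was called lower, and 24 by DESeq2 (1.61%, against 1.56% of all guides). They numbered 0 to 29 with a library left out, with 0 without sorted library 2, where no guide was called, 29 without sorted library 1 (1.94%, against 2.65%), 26 without sorted library 3 (1.74%, against 2.17%), 12 without input library 1 (0.803%, against 0.844%) and 11 without input library 3 (0.736%, against 0.703%). No receptor gene was called under any alternative run, where 3 to 68 genes of the library were called enriched and 0 or 1 depleted. The difference in sorted over input was -0.20 to -0.092 with a library left out. It was 0.048 by edgeR and 0.048 by DESeq2, which reverse it, and -0.0025 among guides with a mean input of 200 to 800. These 3 were chosen after seeing the data, and the cause was not tested. Within 200 to 400 and within 400 to 800 receptor guides had the higher median. No paired analysis was possible because the deposited columns carry no replicate numbers. Rare guides limit depth in the sorted libraries, where 7.26% to 10.8% of guides were at 0.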
